A study of Homo sapiens with 4 samples.

Results

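Expression of 9 genes for antigen presentation on MHC class I was examined in H929 cells in which ILF2 was reduced. The genes were HLA-B, HLA-C, HLA-E, HLA-F, B2M, TAP1, TAP2, TAPBP and NLRC5, taken as a named list and matched by Ensembl gene ID to their copies on the main chromosomes. They are 9 of the 63677 genes in the deposited files. H929 is an established human multiple myeloma line, a tumour of plasma cells, the antibody-secreting cells of the B lineage. All cells were transduced, with a non-silencing short hairpin RNA (shRNA; 2 libraries) or an shRNA against ILF2 (2 libraries). The vector, the time after transduction and whether a single hairpin was used for both ILF2 shRNA libraries are not given in the sources used here. The submitters call the replicates independent, but separate transductions are not stated, so the p-values reflect the spread among these 4 libraries, which may be technical.

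MHC class I molecules show peptides from inside the cell to CD8+ T cells and natural killer cells. A heavy chain (HLA-B and HLA-C are classical ones, HLA-E and HLA-F non-classical ones) pairs with beta-2 microglobulin, the product of B2M, and both must be present for a stable molecule. Peptides cut by the proteasome are pumped into the endoplasmic reticulum by a transporter made of TAP1 and TAP2, and tapasin, the product of TAPBP, holds the empty class I molecule beside that transporter while a peptide is fitted. NLRC5 is a transcriptional coactivator of this gene set and binds through factors that sit on the S, X and Y boxes of the promoters. The same promoters are known to respond to interferon through interferon regulatory factors (IRF) and to NF-kB.

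These promoter elements are shown for 4 of the genes, because HLA-B and B2M were the members whose change passed the test, HLA-C is the close relative of HLA-B whose change did not, and TAP2 was the member with a fold change in the other direction. Each line is the sequence upstream of the annotated gene, from RefSeq's GRCh38.p14 promoter table and found once, letter for letter, in GRCh37. It ends at the base before the gene model used for counting and reads 5′ to 3′ on the gene's strand. Capitals mark matches on either strand to the X2 box core TGACGC, the Y box core CCAAT, the IRF core AANNGAAA or the NF-kB consensus. HLA-B lies at chr6:31324966-31325206 and HLA-C at chr6:31239908-31240119 (both minus strand), B2M at chr15:45003465-45003674 (plus strand) and TAP2 at chr6:32806558-32806766 (minus strand).
HLA-B: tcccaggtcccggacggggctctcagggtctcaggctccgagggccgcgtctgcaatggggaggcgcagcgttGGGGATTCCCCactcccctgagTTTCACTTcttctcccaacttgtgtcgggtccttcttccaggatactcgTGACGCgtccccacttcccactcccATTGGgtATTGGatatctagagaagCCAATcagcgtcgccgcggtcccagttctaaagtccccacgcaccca
HLA-C: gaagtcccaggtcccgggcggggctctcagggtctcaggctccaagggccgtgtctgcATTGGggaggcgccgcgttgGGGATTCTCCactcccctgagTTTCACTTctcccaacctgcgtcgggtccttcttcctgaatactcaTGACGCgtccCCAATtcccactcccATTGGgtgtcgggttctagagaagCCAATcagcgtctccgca
B2M: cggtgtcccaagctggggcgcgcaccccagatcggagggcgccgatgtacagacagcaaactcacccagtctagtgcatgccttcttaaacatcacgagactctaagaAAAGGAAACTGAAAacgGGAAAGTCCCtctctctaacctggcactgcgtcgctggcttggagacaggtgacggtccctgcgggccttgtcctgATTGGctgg
TAP2: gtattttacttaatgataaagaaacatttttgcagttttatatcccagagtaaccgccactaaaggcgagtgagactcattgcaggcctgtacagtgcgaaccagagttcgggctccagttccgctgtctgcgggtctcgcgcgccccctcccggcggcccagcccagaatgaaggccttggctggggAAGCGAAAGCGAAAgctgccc

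HLA-B and HLA-C both hold an NF-kB, an IRF and an X2 match in this order, followed by Y cores. In HLA-B, counted back from RefSeq's start site, the NF-kB match begins at -177, the IRF match at -155, the X2 core at -106 and the Y cores at -81, -74 and -56. In HLA-C the first 3 begin at -172, -151 and -105, and its Y cores at -192, -95, -80 and -56, the first of them upstream of the other matches. B2M has overlapping IRF matches from -142 and -136, an NF-kB match from -125 and a Y core at -49, and TAP2 has overlapping IRF matches from -62 and -56, while its X2 core at -35 lies inside the gene model and is not printed. Of the 9 genes, 7 have a promoter in the table (HLA-E and NLRC5 do not), and over the 250 bases before the start site all 7 hold an IRF match, 5 an NF-kB match, 5 a Y core and 3 an X2 core. TAP1, for which the first of its listed start sites was used, has overlapping IRF matches from -134 and -128 and an NF-kB match from -72. Among 27305 promoters of the same length, 20.6% hold an IRF match, 5.05% an NF-kB match, 33% a Y core and 7.69% an X2 core. A match is a run of letters and was not measured as a bound site.

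ILF2 itself checks the labels. With the non-silencing hairpin 53115 and 52851 fragments were counted, and with ILF2 shRNA 6821 and 7911, a log2 fold change of -2.71 (SE 0.07; adjusted p = 9.2e-39 by edgeR). The libraries held 63459322 to 72977082 counted fragments. Markers of plasma cells summed to 12612 to 12920 normalised counts per 1000000 (CPM) in the non-silencing and 14814 to 14935 CPM in the ILF2 shRNA libraries, with all 9 markers above the low-count filter. Within that list 4 rose, JCHAIN, MZB1, TNFRSF17 and CD38, and 2 fell, SDC1 (log2 fold change -0.24, adjusted p = 0.00616 by edgeR) and SLAMF7 (-0.26, adjusted p = 0.00268). IRF4, PRDM1 and XBP1 were not called. Over all genes tested 10.2% were called higher and 10.1% lower. JCHAIN weighs most in the sum, with 414429 and 427869 fragments in the non-silencing and 489591 and 525693 in the ILF2 shRNA libraries. Markers of myeloid cells, fibroblasts, red cells and epithelial cells summed to at most 0.972 CPM in any library. Of the T cell markers CD3D, CD3G and CD2 had 0 to 4 fragments in each library, while CD3E had 609 and 540 in the non-silencing and 1024 and 1179 in the ILF2 shRNA libraries. The natural killer cell list summed to 1.62 and 1.67 CPM against 3.02 and 3.40 CPM, with KLRD1 and KLRF1 at 0 to 4 fragments. In that list GNLY rose, from 68 and 62 to 158 and 146 fragments (log2 fold change 1.36, adjusted p = 4.58e-08 by edgeR). NKG7 was not called (0.34, adjusted p = 0.363 by edgeR). The mitochondrial share of fragments was 0.307% and 0.351% against 0.463% and 0.516%, and the part of this in the results was not tested.

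B2M and HLA-B rose with ILF2 shRNA, by 1.23-fold and 1.19-fold, and the other 7 genes did not pass the test. In all 9 genes the groups did not overlap: both ILF2 shRNA libraries lay above both non-silencing libraries in 8, as in 28.5% of all genes tested, and below them in TAP2, as in 28% of all genes tested. At an adjusted p under 0.05 in edgeR's quasi-likelihood test, 2 of 9 rose and 0 fell. Among all 19142 genes tested 20.3% were called, 10.2% as higher and 10.1% as lower. Unadjusted, p was under 0.05 for 4 higher and 0 lower members, against 15.5% and 15.4% of all genes. DESeq2 called 2 higher and 0 lower, against 9.2% and 8.56% of the 15430 genes to which it gave an adjusted p. Fold changes were above 0 on the log2 scale in 8 of 9, as in 49.8% of all genes tested. The median log2 fold change of the 9 was 0.145, against -0.0015 over all genes tested, and the 9 values ran from -0.09 to 0.29. The calls of B2M and HLA-B did not hold with either non-silencing library left out, where fewer of all genes were called too. With 1 library left out at a time, the median log2 fold change of the 9 ran from 0.0934 to 0.1976. Over all genes tested that median ran from -0.0071 to 0.0053. Each of these fits has 1 residual degree of freedom, its spread comes from the group that keeps both libraries, and the lone library is assumed to vary like them. For B2M the SE was 0.11 without a non-silencing library, and 0.06 and 0.07 without ILF2 shRNA replicate 1 and replicate 2. In RNA from a whole culture, a change in every cell and a change in the mix of cells cannot be told apart, nor can an effect of the hairpin on other genes from that of ILF2 loss.

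**Figure D1:**
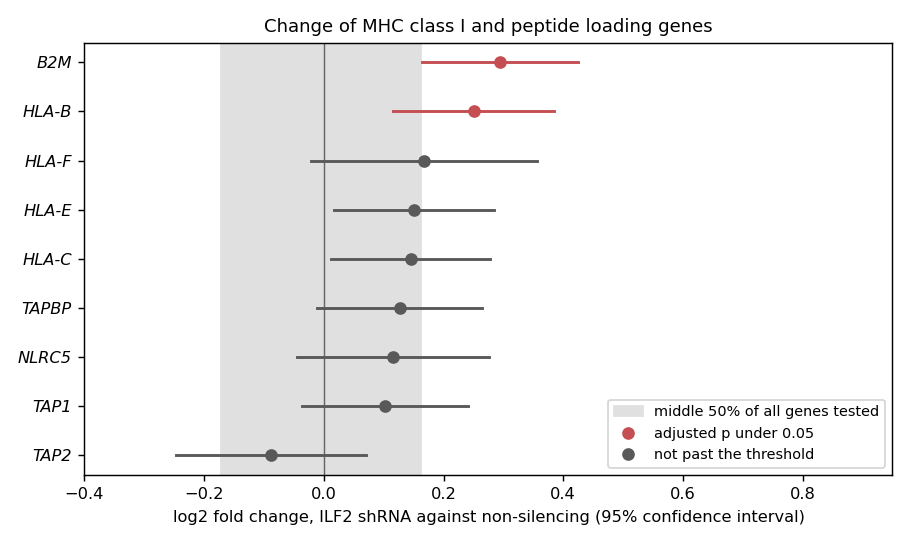
Log2 fold change (x axis, ILF2 shRNA against non-silencing shRNA) of each of the 9 genes (y axis). Lines give the 95% confidence interval, derived from edgeR's test statistic and not adjusted for the number of genes tested. Red marks genes past an adjusted p of 0.05, and a grey band the middle 50% of the 19142 genes tested. The points run from -0.09 for TAP2 to 0.29 for B2M.

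B2M (ENSG00000166710; GRCh37 chromosome 15, 45003675 to 45011075, plus strand), the shared light chain, was counted over 3151 exon bases. Its level was 783 and 792 CPM in the non-silencing libraries and 947 and 985 CPM in the ILF2 shRNA libraries. The ILF2 shRNA libraries were both higher, and the distance between the groups was larger than that within either. The means were 788 ± 5.94 and 966 ± 27.0 CPM (SD, n = 2), which gave a 1.23-fold rise and a log2 fold change of 0.29 (SE 0.07; adjusted p = 0.000454 by edgeR). Leaving out either non-silencing library ended the call (adjusted p = 0.0736 without replicate 1 and 0.0535 without replicate 2), while the fold change stayed between 0.27 and 0.33 with any 1 library left out.

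HLA-B (ENSG00000234745; chromosome 6, 31321649 to 31324965, minus strand) encodes a classical heavy chain. It had 186 and 175 CPM in the non-silencing and 208 and 222 CPM in the ILF2 shRNA libraries. All 4 values were separate, with 175 CPM in non-silencing replicate 2 the lowest. The log2 fold change was 0.25 (SE 0.07; adjusted p = 0.00444 by edgeR), or 1.19-fold, from 181 ± 7.99 to 215 ± 9.66 CPM (SD, n = 2). Here too the call ended when either non-silencing library was dropped (adjusted p = 0.0516 without replicate 1 and 0.24 without replicate 2). The log2 fold change was then 0.30 and 0.21, with an SE of 0.11 in both.

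HLA-C (ENSG00000204525; chromosome 6, 31236526 to 31239907, minus strand), the other classical heavy chain gene, had 519 and 490 CPM in the non-silencing and 538 and 578 CPM in the ILF2 shRNA libraries. Non-silencing replicate 1 and ILF2 shRNA replicate 1 lay close together, and the groups were separated by less than the replicates within each. The log2 fold change was 0.145 (95% confidence interval 0.01 to 0.28; adjusted p = 0.117 by edgeR). Unlike the adjusted p, the intervals given here and below are not adjusted for the number of genes tested. HLA-E (ENSG00000204592; chromosome 6, 30457244 to 30461982, plus strand), whose product presents leader peptides of other class I chains to natural killer cell receptors, had 490 and 466 CPM against 503 and 558 CPM. Its log2 fold change was 0.15 (interval 0.02 to 0.28; adjusted p = 0.105 by edgeR). Both passed without ILF2 shRNA replicate 1, with log2 fold changes of 0.20 (adjusted p = 0.0205) for HLA-C and 0.23 (adjusted p = 0.00641) for HLA-E, so each rests on which libraries are counted.

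HLA-F (ENSG00000204642; chromosome 6, 29690552 to 29706305, plus strand), a non-classical heavy chain gene, was the least counted member, with 766 and 701 fragments in the non-silencing and 695 and 805 in the ILF2 shRNA libraries. On the CPM scale these were 10.3 and 9.73 against 10.9 and 11.6. The log2 fold change was 0.17 (interval -0.02 to 0.36; adjusted p = 0.222 by edgeR), with a wider interval than that of HLA-C or HLA-E.

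**Figure D2:**
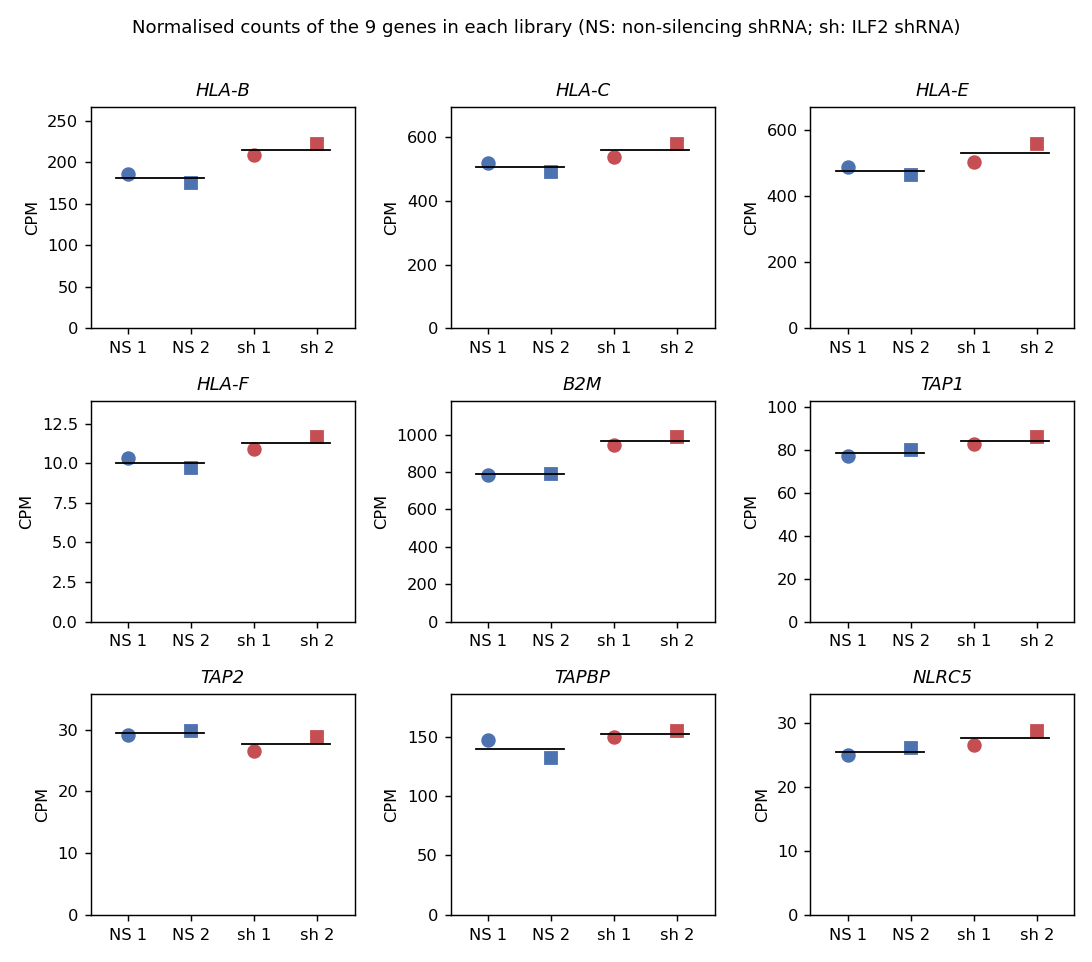
Normalised counts (y axis, CPM, from 0) of each of the 9 genes in the 4 libraries (x axis: NS 1 and NS 2, non-silencing shRNA; sh 1 and sh 2, ILF2 shRNA), with a line at each group's mean. B2M shows the clearest step, from 783 and 792 to 947 and 985 CPM, while TAP2 sits slightly lower in both ILF2 shRNA libraries.

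The peptide transporter genes did not pass the test in either direction. TAP1 (ENSG00000168394; chromosome 6, 32812986 to 32821755, minus strand) had 77.2 and 79.6 CPM in the non-silencing and 82.7 and 85.7 CPM in the ILF2 shRNA libraries, a log2 fold change of 0.10 (interval -0.04 to 0.24; adjusted p = 0.335 by edgeR). TAP2 (ENSG00000204267; chromosome 6, 32789610 to 32806557, minus strand) had 29.1 and 29.8 CPM against 26.5 and 28.9 CPM, a log2 fold change of -0.09 (interval -0.25 to 0.07; adjusted p = 0.494 by edgeR). It was -0.03 without ILF2 shRNA replicate 1 and -0.15 without ILF2 shRNA replicate 2. For TAP2 the gap between ILF2 shRNA replicate 2 and the lower non-silencing library was smaller than the spread of the ILF2 shRNA pair. TAP2 shares 2064 of its 6385 exon bases (32.3%) with a gene model on the same strand, ENSG00000250264, which held 2 to 9 fragments in each library. Fragments that fall on both are taken to be left out of either count, which would lower the level of TAP2 in every library.

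Tapasin and the coactivator gave values on the same side as the heavy chains without passing. TAPBP (ENSG00000231925; chromosome 6, 33267471 to 33282164, minus strand) had 147 and 132 CPM in the non-silencing and 150 and 155 CPM in the ILF2 shRNA libraries. The non-silencing pair differed by more than the groups did, and the log2 fold change of 0.13 (interval -0.01 to 0.27; adjusted p = 0.205 by edgeR) became 0.21 without non-silencing replicate 1 and 0.05 without replicate 2. NLRC5 (ENSG00000140853; chromosome 16, 57023397 to 57117443, plus strand), the largest of the genes with 12386 exon bases, had 25.04 and 26.0 CPM against 26.5 and 28.8 CPM. Its log2 fold change was 0.12 (interval -0.05 to 0.28; adjusted p = 0.35 by edgeR), with 0.18 and 0.05 on leaving out ILF2 shRNA replicate 1 and replicate 2.

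Per exon length the 9 genes spanned 2 orders of magnitude, in the same order in all 4 libraries except for the last pair. B2M was highest at 250 ± 1.88 CPM per kilobase (SD, n = 2) in the non-silencing libraries, above 99.1% of genes tested. HLA-C followed at 201 ± 7.99, HLA-E at 161 ± 5.77 and HLA-B at 59.9 ± 2.65 CPM per kilobase. Tapasin's gene had 27.6 ± 2.15, TAP1 16.5 ± 0.354 and TAP2 4.61 ± 0.0826 CPM per kilobase. HLA-F had 2.08 to 2.21 in the non-silencing and 2.33 to 2.48 in the ILF2 shRNA libraries, and NLRC5 2.02 to 2.10 and 2.14 to 2.32. Their ranges overlapped in the non-silencing libraries, where NLRC5 lay above HLA-F in replicate 2. In the ILF2 shRNA libraries HLA-F lay above NLRC5, by a gap smaller than the spread of either. Every other neighbour in this order was separate in every library. The coactivator gene thus lay near the middle of the genes tested, above 47.1% of them, while 4 of the genes it is known to act on each lay above at least 95% of them.

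**Figure D3:**
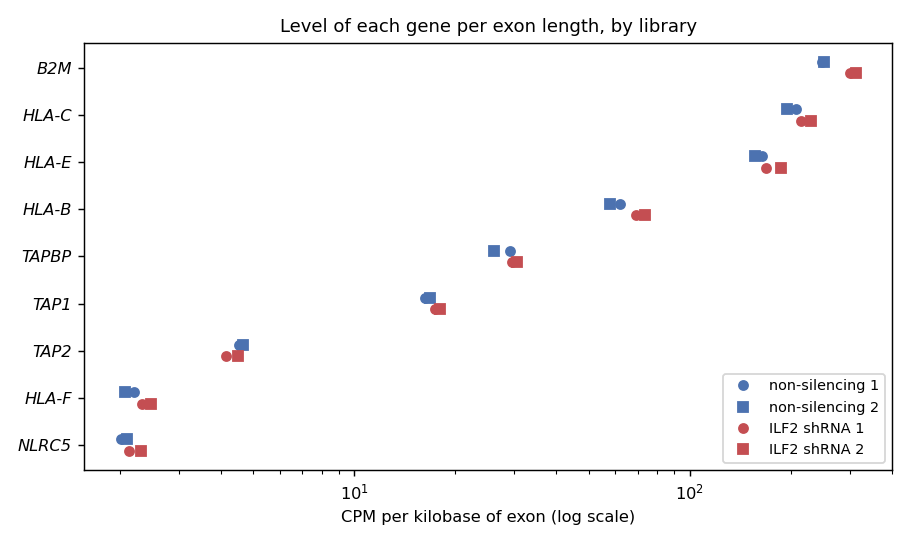
Level of each gene (y axis, ordered by the non-silencing mean) in each library, as CPM per kilobase of exon on a log x axis, with blue for non-silencing and red for ILF2 shRNA libraries. B2M lies at 249 to 313 and NLRC5 at 2.02 to 2.32 CPM per kilobase.

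Heavy chain genes resemble each other and vary between people, so the counting was examined. Of all stretches of 76 bases, the read length, in the exons of HLA-B, 0.332% occur again letter for letter on chromosome 6, against 1.68% for HLA-C, 1.89% for HLA-E and 0.966% for HLA-F. The 7 alternate MHC haplotypes in the annotation, with 2329 genes, held 0 fragments in all libraries, so fragments were counted against a single reference haplotype. How well the alleles of this line match that haplotype was not tested, and it can shift the level of HLA-B against HLA-C in all libraries alike. The opposite-strand gene HLA-F-AS1, which overlaps exons of HLA-F, had 4 to 8 fragments in each library of this strand-specific protocol. Opposite HLA-B, ENSG00000271581 had 6 to 25, and opposite TAP1, PSMB8-AS1 had 481 to 605, against 5268 to 5931 for TAP1 itself.

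Ratios of 2 genes within a library do not depend on how libraries are scaled, and 8 were examined, chosen after their values had been seen. HLA-B over HLA-C, per exon length, was 0.299 and 0.297 in the non-silencing and 0.321 and 0.319 in the ILF2 shRNA libraries. The pairs lay tightly together and apart from each other. The summed level of HLA-B, HLA-C and HLA-E over that of B2M was 1.74 and 1.63 against 1.51 and 1.57, lower in both ILF2 shRNA libraries. TAP1 over TAP2 was 3.58 and 3.596 against 4.197 and 3.999, higher in both. HLA-E over HLA-C was 0.796 and 0.800 against 0.788 and 0.814, with overlapping groups. With 2 libraries against 2, a two-sided exact permutation test cannot give a p below 0.333, so that test could not pass for any ratio and the values are given as a description.

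The other genes of the pathway were read from 10 lists of general knowledge holding 80 genes, of which 72 were tested and 8 had 0 to 9 fragments in each library. Together 9 rose and 3 fell, or 16.7% called against the 20.3% of all genes. The counts of each list below stand beside 10.2% of all genes tested called higher and 10.1% lower. Of the 9 that rose, 4 lie on chromosome 5 (ERAP1, ERAP2, CANX and IRF1), where 29.7% of 900 tested genes were higher, 3.33% were lower and the median log2 fold change was 0.15. With chromosome 5 left out, 5 of 67 list genes rose and 3 fell. Among all tested genes outside chromosome 5, 9.28% were higher and 10.4% lower. None of the 9 members lies on that chromosome, and the part of its shift in these list genes was not tested. The shares called on chromosome 15, which holds B2M, and chromosome 16, which holds NLRC5, were not examined.

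Among genes of peptide loading in the endoplasmic reticulum 2 of 7 rose and 0 fell, against 10.2% higher and 10.1% lower over all genes tested. CANX lies on chromosome 5, and without that chromosome 1 of 6 rose. HSPA5, the chaperone BiP, went from 534 and 514 CPM in the non-silencing to 617 and 627 CPM in the ILF2 shRNA libraries, a log2 fold change of 0.25 (SE 0.07; adjusted p = 0.00337 by edgeR). It was no longer called when non-silencing replicate 1 or 2 was left out (0.28, adjusted p = 0.085, and 0.22, adjusted p = 0.205). CANX, which encodes the lectin chaperone calnexin that holds new heavy chains, had a log2 fold change of 0.19 (adjusted p = 0.0361 by edgeR), and this was lost on leaving out non-silencing replicate 1 (adjusted p = 0.57), non-silencing replicate 2 (adjusted p = 0.158) or ILF2 shRNA replicate 1 (adjusted p = 0.0907).

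Of 8 peptide trimming genes, 2 rose and 1 fell. The 2 that rose lie on chromosome 5, and without that chromosome 0 of 5 rose and 1 fell. The aminopeptidases that trim peptides inside the endoplasmic reticulum were the ones that rose. ERAP2 had 71.3 and 77.99 CPM in the non-silencing and 108 and 103 CPM in the ILF2 shRNA libraries, and its log2 fold change of 0.50 (SE 0.07; adjusted p = 1.13e-07 by edgeR) was larger than that of any of the 9 members. ERAP1 rose from 126 and 130 CPM to 159 and 157 CPM, a log2 fold change of 0.30 (SE 0.07; adjusted p = 0.000482 by edgeR; adjusted p = 0.0709 without non-silencing replicate 1). LNPEP lies beside ERAP1 and ERAP2 on chromosome 5 and is given for that reason. It had 150 and 158 CPM in the non-silencing and 168 and 151 CPM in the ILF2 shRNA libraries, with overlapping groups. THOP1, a cytosolic oligopeptidase that cuts peptides before transport, fell from 178 and 162 CPM to 114 and 123 CPM, a log2 fold change of -0.52 (SE 0.07; adjusted p = 3.31e-08 by edgeR). ERAP2 and THOP1 stayed called with any 1 library left out.

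The proteasome genes that make peptides were 0 higher and 1 lower of 7 for the immunoproteasome and its activator. Among the standard subunits, which those of the immunoproteasome replace, 0 of 3 were higher and 0 lower. These counts were the same by edgeR, DESeq2 and limma-voom. With edgeR's p unadjusted and under 0.05, 0 were higher and 2 lower in the first list, and 0 and 1 in the second. Over all genes these shares were 15.5% higher and 15.4% lower. PSMB8, an immunoproteasome catalytic subunit gene in the MHC next to the transporter genes, fell from 48.9 and 50.6 CPM to 41.9 and 43.1 CPM, a log2 fold change of -0.23 (SE 0.07; adjusted p = 0.0215 by edgeR). That call ended without either non-silencing library (adjusted p = 0.121 and 0.269) and without ILF2 shRNA replicate 1 (adjusted p = 0.0759). PSMB9, the neighbouring catalytic subunit gene, had a log2 fold change of 0.14 (adjusted p = 0.236 by edgeR), and TAP1 beside it 0.10. The most abundant standard subunits, PSMB6 and PSMB7, had log2 fold changes of -0.14 and -0.10, neither past the test.

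Regulators were mostly not called, and their counts stand beside 10.2% higher and 10.1% lower over all genes tested. RFX5, which encodes a factor that binds the X box with RFXANK and RFXAP, rose from 154 and 153 CPM to 180 and 187 CPM, a log2 fold change of 0.26 (SE 0.07; adjusted p = 0.00285 by edgeR; adjusted p = 0.094 and 0.109 without non-silencing replicate 1 and replicate 2, at 0.26 in both). It was the 1 of 8 RFX, CREB and NF-Y genes to pass. IRF1, an interferon-induced activator of class I promoters, was the 1 of 9 IRF, STAT and NF-kB genes to pass, with 101 and 101 CPM against 114 and 121 CPM and a log2 fold change of 0.22 (SE 0.07; adjusted p = 0.0132 by edgeR). Its call ended with any of non-silencing replicate 1, non-silencing replicate 2 or ILF2 shRNA replicate 2 left out (adjusted p = 0.185, 0.18 and 0.0969, at 0.22, 0.23 and 0.18). Among 10 genes for interferon receptors, JAK kinases and their inhibitors, IFNGR2 (log2 fold change 0.32, adjusted p = 0.0063 by edgeR) and JAK1 (0.24, adjusted p = 0.00641) rose and 0 fell. The IFNGR2 call ended without non-silencing replicate 1 (adjusted p = 0.0767) or 2 (adjusted p = 0.066), and that of JAK1 without replicate 1 (adjusted p = 0.302).

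Of 6 tested class I-like and stress ligand genes, ULBP3, a ligand of the activating receptor NKG2D, rose from 2.25 and 2.61 CPM to 3.44 and 3.50 CPM, a log2 fold change of 0.51 (SE 0.14; adjusted p = 0.00509 by edgeR; adjusted p = 0.13 without non-silencing replicate 1). DESeq2 did not call it (adjusted p = 0.053). Genes that act on class I turnover or at the surface had 0 calls of 9 by edgeR, DESeq2 or limma-voom and, with p unadjusted and under 0.05, 4 higher and 0 lower, against 15.5% and 15.4% of all genes. The most abundant were HM13 at -0.12 (-0.07 without non-silencing replicate 1) and WWP2 at 0.11 (0.19 and 0.02 without ILF2 shRNA replicate 1 and replicate 2). Among CIITA and MHC class II genes, 5 of 7 were tested and CIITA alone fell, from 4.06 and 3.80 CPM to 1.24 and 1.37 CPM (log2 fold change -1.59, SE 0.15; adjusted p = 3.43e-12 by edgeR). The class II genes tested beside CIITA held few fragments. Each library had 6 to 16 for HLA-DRB1, 35 to 39 for HLA-DRA, 73 to 92 for HLA-DMA and 80 to 137 for HLA-DOB. The SEs of their log2 fold changes were 0.19 to 0.52, too wide to show changes of the members' size. CIITA is the class II counterpart of NLRC5, whose own change of 0.12 did not pass.

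**Figure D4:**
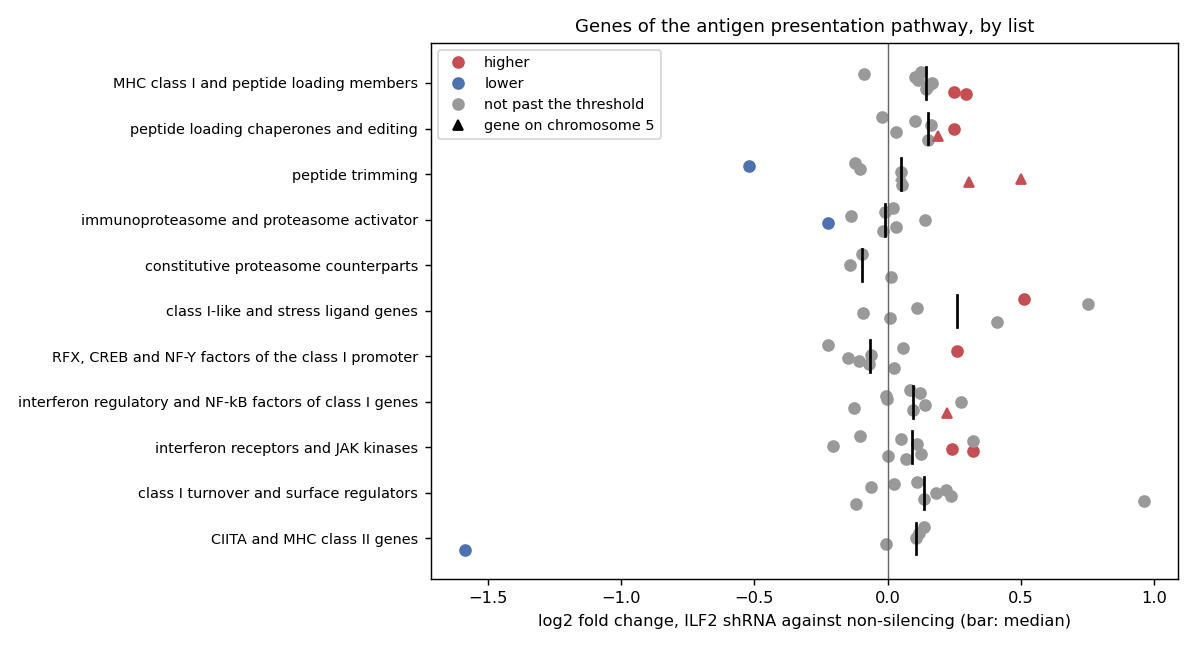
Log2 fold change (x axis) of each tested gene of the 9 members and of the 10 pathway lists (y axis), red for higher, blue for lower and grey for genes not past an adjusted p of 0.05, with triangles for genes on chromosome 5 and a bar at each list's median. The members' median is 0.145, ERAP2 at 0.50 and ERAP1 at 0.30 are triangles, and CIITA stands apart at -1.59.

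The 7 members on chromosome 6 lie within the MHC, between the start of HLA-F and the end of TAPBP (29690552 to 33282164). Of 136 genes tested in that stretch, 9 were higher (6.62%) and 11 lower (8.09%), with a median log2 fold change of 0.02. HLA-B was the only member among the 9 that were higher. Both shares were below the 10.2% and 10.1% over all genes, a comparison given with no test.

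**Figure D5:**
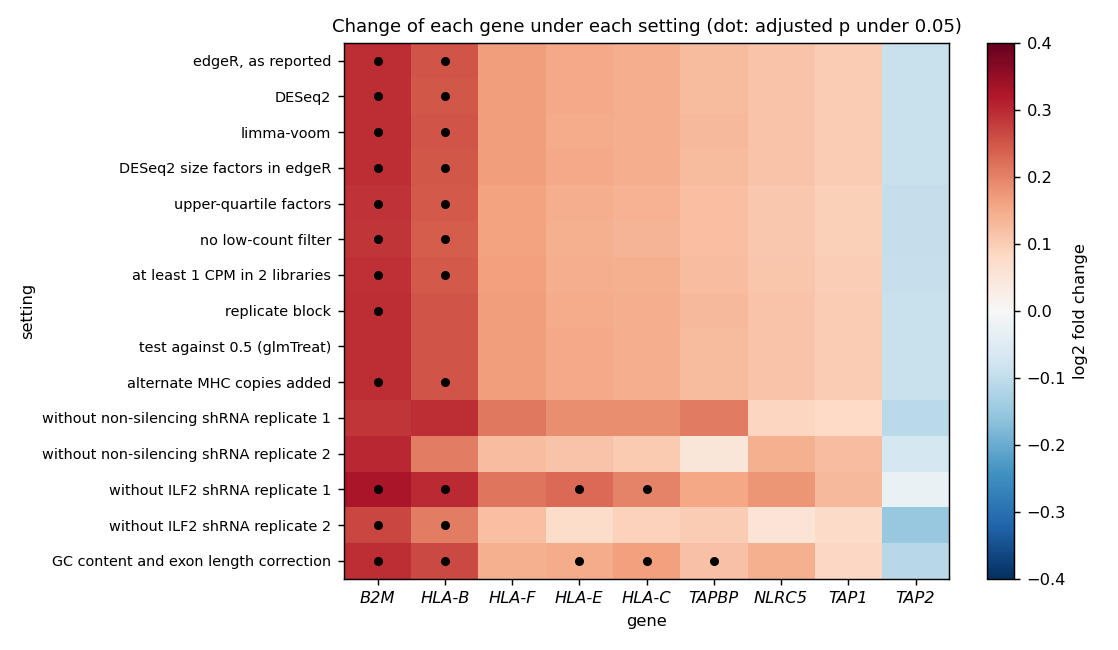
Log2 fold change (colour, from -0.4 in blue to 0.4 in red) of each of the 9 genes (x axis) under the reported edgeR analysis and each alternative setting (y axis), with a dot where the adjusted p was under 0.05. The sign is the same in every row for all 9 genes, while B2M and HLA-B lose their dots when a non-silencing library is left out.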

How the data were processed

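RNA of 4 H929 libraries, 2 per group, was sequenced as pairs after ribosomal RNA removal, by a strand-specific protocol. The authors deposited raw counts of fragments per gene, made with featureCounts (Subread 1.4.6-p2), strand setting 2, on the Ensembl release 75 annotation of GRCh37, per the file headers. The exon lengths in the other deposited column come from the same annotation. STAR 2.3.0 and SAMtools 0.1.19 are named in the submitters' processing notes, while the design text names Tophat2. No option for fragments with several places or genes is recorded, and such fragments are assumed to have been dropped.

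Genes were named by Ensembl ID (55665 of 63677 matched). edgeR 4.0.16 under R 4.3.3 was run on the counts with TMM factors (0.97 to 1.02), filterByExpr (minimum count 10), the robust two-sided quasi-likelihood test on group, and Benjamini-Hochberg adjustment over 19142 genes; the fit has 2 residual degrees of freedom. Calls are at an adjusted p under 0.05. The SE is the absolute log2 fold change divided by the square root of the F statistic of that test. Confidence intervals are built from this SE and the t distribution, without adjustment for the number of genes. CPM are counts per 1000000 of the TMM-adjusted library size. Alternatives used DESeq2 1.42.0, limma 3.58.1 and mgcv 1.9.3. The steps were tested on simulated counts with 50 genes changed at each size. Of these, 32% were called at a log2 fold change of 0.25 and 84% at 0.5. The changed genes of the simulation were drawn from expressed genes of many levels and were not matched to the members. These shares may therefore differ for genes at the members' levels. Far fewer genes changed there than were called in the data, which makes the adjusted p stricter. Members and lists were chosen with earlier results of these data known. Named genes are the members, ILF2, CIITA, PSMB8, PSMB9 and, from each list, up to 4 called genes with the smallest adjusted p or else the 2 most abundant. LNPEP was added for its place beside ERAP1 and ERAP2.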

Additional observations from a re-analysis of the deposited data

How the results depend on the processing

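All 9 genes kept their direction under each of the 14 alternatives that gave a fold change. Among these, adding the alternate MHC copies, which hold 0 fragments, repeats the reported fit. The test against a log2 fold change of 0.5 keeps the reported fold changes, so neither of these settings could alter a direction. B2M and HLA-B stayed called under DESeq2, limma-voom, both other scalings and both other filters. Leaving out 1 library at a time gave 0 to 4 members called higher, 1029 to 1899 genes higher and 1070 to 1822 lower, and 1 to 10 list genes higher. Fold changes then ran from 0.27 to 0.33 for B2M, 0.20 to 0.30 for HLA-B, 0.0934 to 0.20 for HLA-C, 0.0745 to 0.23 for HLA-E, 0.12 to 0.22 for HLA-F, 0.05 to 0.18 for NLRC5, 0.08 to 0.13 for TAP1, -0.15 to -0.03 for TAP2 and 0.05 to 0.21 for TAPBP. With replicate number as a block, 1 member and 5 list genes were higher, as were 1291 of all genes, and HLA-B did not pass (0.25, adjusted p = 0.0629 by edgeR). The numbers do not show pairing (correlation of same-numbered deviations -0.30), and with crossed numbers, tried after seeing the data, 5 members were higher and 15 list genes were higher and 9 lower, as were 2871 and 2857 of all genes (1960 and 1925 as reported). Against a log2 fold change of 0.5 (glmTreat), 0 members passed (B2M 0.29, HLA-B 0.25), with 155 genes higher and 126 lower and 0 and 1 list genes. Correcting for exon GC content and for length, added after seeing the data, gave 5 members higher, adding HLA-C (0.16, adjusted p = 0.00177), HLA-E (0.15, adjusted p = 0.00474) and TAPBP (0.12, adjusted p = 0.0343), with 2843 of all genes higher and 2946 lower, and 15 list genes higher and 12 lower; the cause was not tested. Without chromosome 5, also added then, 5 list genes were higher. With 2 libraries per group and SEs of 0.07 to 0.09, changes of the members' size sit near the limit of this comparison.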
